A study of Mus musculus with 23 samples.

Results

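Collagens are triple-helical proteins of the extracellular matrix, and each gene of the family encodes 1 α chain. The collagen genes were taken as the genes whose symbol is Col, a number, a, and a number, and they were matched to the count table by gene ID. There were 44 such genes, and 37 of them, of 14364 genes in all, had at least 10 counts in at least 5 mice and were tested. Levels came from RNA-Seq of bone of 23 female mice aged 11 weeks, with 1 library per mouse. The labels give the strain as C57BL6/N, and the study's methods give a C57BL/6NTac background. The bone was the femur and tibia of 1 hind limb, from which the epiphyses and marrow had been removed. Type 1 diabetes (T1D) had been induced at 8 weeks of age with streptozotocin, a toxin of pancreatic β cells, given intraperitoneally at 100 mg/kg after a fast, repeated on day 2 of the schedule, and given again to mice whose fed glucose was still under 300 mg/dL. Diabetes had lasted 3 weeks, and controls received saline. The groups were wild type mice given saline (WT Control, n = 5), wild type mice with T1D (WT T1D, n = 6), mice labelled as global knockouts of Sarm1 and given saline (KO Control, n = 6), and such mice with T1D (KO T1D, n = 6). Sarm1 encodes an enzyme of axon degeneration. WT mice were littermates or came from a supplier.

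Fibrillar collagens are laid down as rope-like fibrils after their propeptides are cut away. Type I collagen, built from the products of Col1a1 and Col1a2, is the main protein of bone matrix and is made by osteoblasts. Types II, IX, X, and XI are best known from cartilage, type IV forms the sheet of basement membranes, type VI forms beaded filaments around cells, and other collagens bind to fibrils or span the cell membrane. The tested genes were placed in classes by these roles, with 7 bone and stromal fibrillar, 8 cartilage, 5 basement membrane, 5 beaded filament, 6 fibril-associated, and 6 other chains. The chains left out were Col4a3, Col4a4, Col4a5, Col4a6, Col17a1, Col6a6, and Col26a1, whose largest count in any mouse was 16.

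Total counts per mouse ranged from 16938101 to 20135592. Sarm1 itself had 0.845 to 1.76 counts scaled to the size of each library (CPM) in WT Control mice and 0.34 to 1.21 CPM in WT T1D mice. It had 0.268 to 1.57 CPM in the KO Control group and 0.811 to 1.46 CPM in the KO T1D group. By qPCR, the paper reports that Sarm1 was low in bone and significantly lower in knockout than in WT bone. In the counts used here the ranges of the genotypes overlapped at these low levels, and whether the counted reads cover the deleted part was not tested. The animals are called labelled KO for this reason. Of the 6 WT T1D mice, A3905 and A3906 stood apart from every other mouse. For 20 of the 37 collagen genes, both had lower CPM than each of the other 21 mice. The share of all genes with this pattern was not counted, so this count does not set the collagen genes apart from other genes. Their summed CPM of 10 osteoblast and osteocyte markers was 3891 and 3523, against 9086 to 18458 elsewhere. Their summed CPM of the 9 tested erythroid markers was 237968 and 232930, against 81113 to 179597 elsewhere. Their summed neutrophil and promyelocyte markers were also the highest, with 41477 and 37498 CPM against 22496 to 36686 CPM elsewhere. Counts of calls for T1D in WT, and differences that moved by over 1.5 times, are therefore also given without these mice. In a bulk sample, fewer cells of a type and less RNA per cell cannot be told apart.

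In WT Control bone, the type I chains exceeded all other collagens on the TPM scale, which adjusts counts for transcript length and library size. Col1a1 had a level of 12246 ± 3177 TPM (SD, n = 5), and Col1a2 had 9085 ± 2336 TPM. The ranges of these 2 genes overlapped across mice, but Col1a1 was above Col1a2 in each of the 5. Next came Col11a1 with 360 ± 100 TPM, Col11a2 with 351 ± 92.3 TPM, Col2a1 with 335 ± 110 TPM, and Col5a2 with 310 ± 97.8 TPM. The ranges of these 4 neighbours overlapped, so their order did not exceed the spread between mice. Col3a1, the partner of type I in soft tissue fibrils, had 187 ± 85 TPM, and the type IV chains Col4a1 and Col4a2 had 43.8 ± 9.52 and 30 ± 5.25 TPM. The chains of type XI and type II collagen, named for cartilage, were thus above Col3a1 on average in this bone. Besides Col1a2 and Col11a1, the only neighbours in the whole order whose ranges did not overlap were Col22a1, with 82.2 ± 14.6 TPM, and Col4a1.

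**Figure D1:**
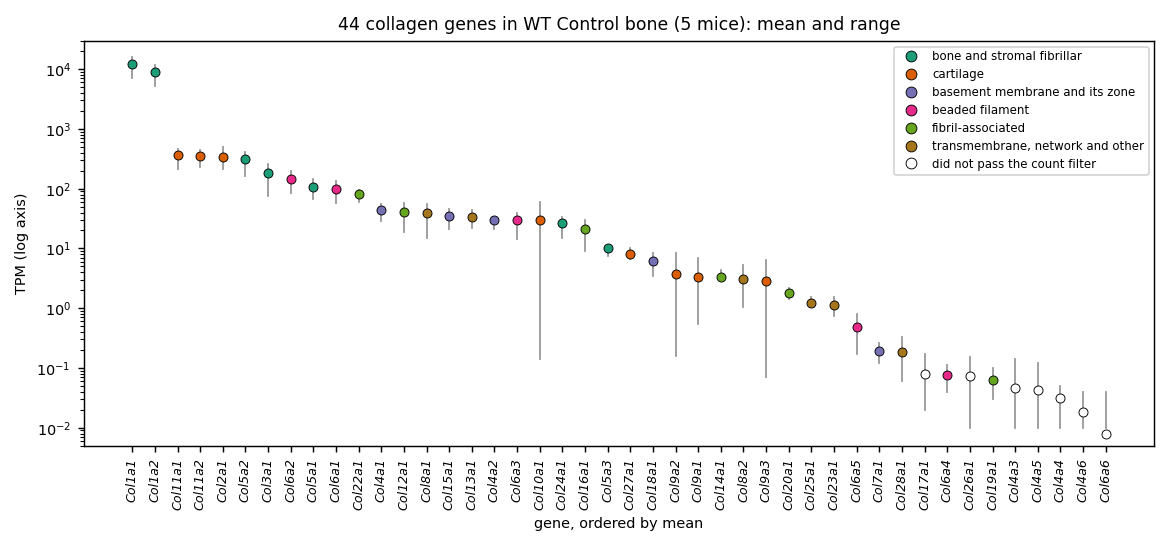
TPM of the 44 collagen genes in WT Control bone on a log axis, with the mean of 5 mice as points and the range as lines, drawn down to 0.01 where a mouse was lower. Col1a1 (12246 TPM) and Col1a2 (9085 TPM) stand far above Col11a1 (360 TPM), and the line of Col10a1 spans the widest range among genes above 10 TPM.

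The 44 genes lie on many chromosomes, but several partner chains are neighbours. On GRCm38.p6, Col4a1 (chr8:11198423-11312889) and Col4a2 (chr8:11312805-11449287) start head to head and overlap by 85 bases, so reads from that stretch could be counted for either. Col3a1 and Col5a2 are 24624 bases apart on chromosome 1, and Col6a1 and Col6a2 are 85161 bases apart on chromosome 10. The type I genes are not neighbours, with Col1a1 at chr11:94936224-94953042 and Col1a2 at chr6:4505618-4541543.

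RefSeq promoter windows of the same build, from 250 bases before to 50 after a start, were found for 30 of the 37 tested genes. The letters of 6 short motifs were searched on both strands. The TATA box TATAAA was in 13.3% of the collagen genes with a window and in 15.7% of all 27025 genes. The CCAAT box was in 36.7% of the collagen genes and 41.1% of all genes. The GC box GGGCGG was in 63.3% of the collagen genes and 38.2% of all genes. The RUNX core TGTGGT was in 6.67% and 18.9%, the SOX motif ACAATG in 3.33% and 14.3%, and the AP-1 motif TGACTCA in 3.33% and 5.95%. These are matches of letters and not sites of binding. None of these motifs contains another. The windows of 5 genes follow, chosen for the patterns that the results turn on, 5′ to 3′ on the strand of the gene. Col1a2 (chr6:4505368-4505667, plus strand) is shown as the abundant bone chain, Col11a2 (chr17:34038888-34039187, plus) as a cartilage chain that was high in all mice but A3905 and A3906, Col10a1 (chr10:34389731-34390030, plus) as a cartilage chain near 0 in most mice, and Col6a5 (chr9:105960594-105960893, minus) as the 1 chain past the threshold. In these 4, capitals mark the motifs. In Col4a1 (chr8:11312777-11313076, minus), capitals mark the 78 bases that its window shares with the window of Col4a2 on the other strand.
Col1a2: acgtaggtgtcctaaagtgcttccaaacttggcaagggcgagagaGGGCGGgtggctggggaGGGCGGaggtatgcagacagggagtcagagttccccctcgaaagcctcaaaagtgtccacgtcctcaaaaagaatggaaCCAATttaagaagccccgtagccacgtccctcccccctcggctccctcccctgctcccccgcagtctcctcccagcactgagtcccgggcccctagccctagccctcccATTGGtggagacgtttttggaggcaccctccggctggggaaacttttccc
Col11a2: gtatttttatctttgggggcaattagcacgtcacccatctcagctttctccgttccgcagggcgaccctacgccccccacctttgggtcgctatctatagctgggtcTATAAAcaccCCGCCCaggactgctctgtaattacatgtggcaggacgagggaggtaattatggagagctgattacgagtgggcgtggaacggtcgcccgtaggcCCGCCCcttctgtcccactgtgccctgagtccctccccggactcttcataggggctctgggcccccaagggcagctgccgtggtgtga
Col10a1: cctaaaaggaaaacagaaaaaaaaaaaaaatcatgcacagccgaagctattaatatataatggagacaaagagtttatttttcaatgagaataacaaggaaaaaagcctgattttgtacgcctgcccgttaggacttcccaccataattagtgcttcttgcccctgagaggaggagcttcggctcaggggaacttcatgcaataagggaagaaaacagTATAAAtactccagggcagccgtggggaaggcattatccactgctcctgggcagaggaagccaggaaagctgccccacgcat
Col6a5: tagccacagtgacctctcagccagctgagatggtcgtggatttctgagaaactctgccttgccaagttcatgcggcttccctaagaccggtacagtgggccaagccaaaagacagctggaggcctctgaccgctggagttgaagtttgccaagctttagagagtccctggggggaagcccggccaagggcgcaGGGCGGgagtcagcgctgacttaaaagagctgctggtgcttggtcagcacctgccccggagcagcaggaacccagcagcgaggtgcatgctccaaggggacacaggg
Col4a1: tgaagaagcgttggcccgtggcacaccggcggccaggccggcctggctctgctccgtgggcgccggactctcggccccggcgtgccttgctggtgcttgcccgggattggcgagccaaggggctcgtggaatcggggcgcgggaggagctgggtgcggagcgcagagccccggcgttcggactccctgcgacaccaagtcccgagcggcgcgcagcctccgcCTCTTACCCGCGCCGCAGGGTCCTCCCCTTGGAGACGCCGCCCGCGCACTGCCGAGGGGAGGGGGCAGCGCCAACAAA
The window of Col1a2 holds 2 GC boxes and 2 CCAAT boxes and no TATAAA. That of Col10a1 holds TATAAA 32 bases before the start, and that of Col11a2 holds it 143 bases before. Positions are counted from the start on which each window was built. For Col11a2 (chr17:34038919-34066684), Col6a5 (chr9:105856070-105962463), and Col4a1 (chr8:11198423-11312889) this start lies inside the gene. The TATAAA of Col11a2 lies inside the gene as well. Col6a5 has 1 GC box.

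The comparison of WT T1D with WT Control asks whether collagen expression differed with diabetes in wild type mice. Collagen genes were mostly lower in WT T1D, but few differences passed the threshold. Of the 37 genes, 34 had a negative log2 fold change and 3 a positive one, where 51.9% of all genes were negative. The median log2 fold change was -0.70, against -0.01 over all genes. By edgeR's quasi-likelihood test, 1 of these 37 passed an adjusted p threshold of 0.05, as did 2.33% of all genes tested, and it was lower, as were 0.828% of all genes. At an unadjusted p under 0.05, 16 collagen genes were lower and 1 was higher, against 11.2% and 11% of all genes. Without A3905 and A3906 the median was -0.37, 33 of the 37 genes stayed negative, and 0 passed, as did 0% of all genes, while 6 were lower and 1 was higher at an unadjusted p under 0.05, against 5.62% and 5.35% of all genes. Among the mice whose IDs begin with A36 to A39, 11 collagen genes passed, all lower, against 15.4% of all genes. Of the WT mice, 1 of 5 controls and 3 of 6 with T1D have IDs of the A17 series, so ID series was unevenly spread over the comparison. Within the A36 to A39 series 2 of the 3 WT T1D mice are A3905 and A3906. The count was also 11 without WT T1D A3909, 3 without A1764, and 2 without WT Control A1757, against 8.8%, 6.53%, and 4.8% of all genes.

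The single gene past the threshold was Col6a5 (ID 665033), which encodes a chain of type VI collagen and was scarce. Its level in WT Control mice was 1.2, 4.83, 2.71, 2.71, and 3.42 CPM, and in WT T1D it ran from 0.453 through a median of 0.965 to 1.31 CPM. In WT T1D, 5 of 6 mice had less Col6a5 than any WT Control animal. In mice labelled KO it was 1.62 ± 0.645 CPM in Control and 1.4 ± 0.914 CPM in T1D (SD, n = 6 each). The log2 fold change in WT was -1.66 ± 0.39 (SE), with an adjusted p of 0.044 by edgeR. Without A3905 and A3906 it was -1.52, with an adjusted p of 0.288 by edgeR. The call was also lost when any 1 of 13 mice was left out, with adjusted p from 0.0508 to 0.114, namely WT Control A3767, A3903, A3904, and A3907, WT T1D A1787, A3905, and A3906, KO Control A3670, A3673, A3679, and A3680, and KO T1D A3675 and A3681.

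The bone and stromal fibrillar chains were lower in WT T1D in 7 of 7 cases, with a median log2 fold change of -0.83, and 0 passed. Col1a1 (ID 12842) was 31388, 52252, 46058, 50212, and 62370 CPM in WT Control and ran from 2215 through 33614 to 43914 CPM in WT T1D. The groups overlapped, and the 2 lowest WT T1D values, 3018 in A3905 and 2215 in A3906, lay far below the next, 31114. The log2 fold change was -0.91 ± 0.49 (SE), with an adjusted p of 0.282 by edgeR, and -0.37 without these mice. Col1a2 (ID 12843) followed the same course, with 20581, 34847, 30704, 31656, and 40160 CPM in WT Control and 1519, 22722, and 28428 CPM as the lowest, median, and highest in WT T1D. The change was -0.90 ± 0.48 (SE) on the log2 scale, and -0.37 without A3905 and A3906. Together the 2 type I genes took 5.22% to 10.3% of all counts in WT Control, 0.472% in A3905, 0.352% in A3906, and 5.17% to 6.72% in the other WT T1D mice.

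Col3a1 (ID 12825) varied most of its class outside A3905 and A3906, by 4.44-fold from the lowest to the highest of the other 21 mice. It was 308, 878, 905, 439, and 894 CPM in WT Control, and in WT T1D it ranged from 71.4 in A3906 to 1012 in A1764, the highest of all 23 mice. The log2 fold change was -0.76 ± 0.49 (SE), or -0.27 without A3905 and A3906, and the groups overlapped. Col5a1 (ID 12831), whose chain helps to start type I fibrils, was 408, 640, 598, 553, and 805 CPM in WT Control and 150 to 512 CPM in WT T1D, with a log2 fold change of -0.72 ± 0.27 (SE) and an adjusted p of 0.114 by edgeR, or -0.36 without A3905 and A3906. Col24a1 had the largest change of its class, -1.02 ± 0.51 (SE), with 3.68 CPM in A3905 and 6.42 CPM in A3906 against 67 to 160 CPM in the other 21 mice. Without the 2 mice its log2 fold change was -0.48.

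**Figure D2:**
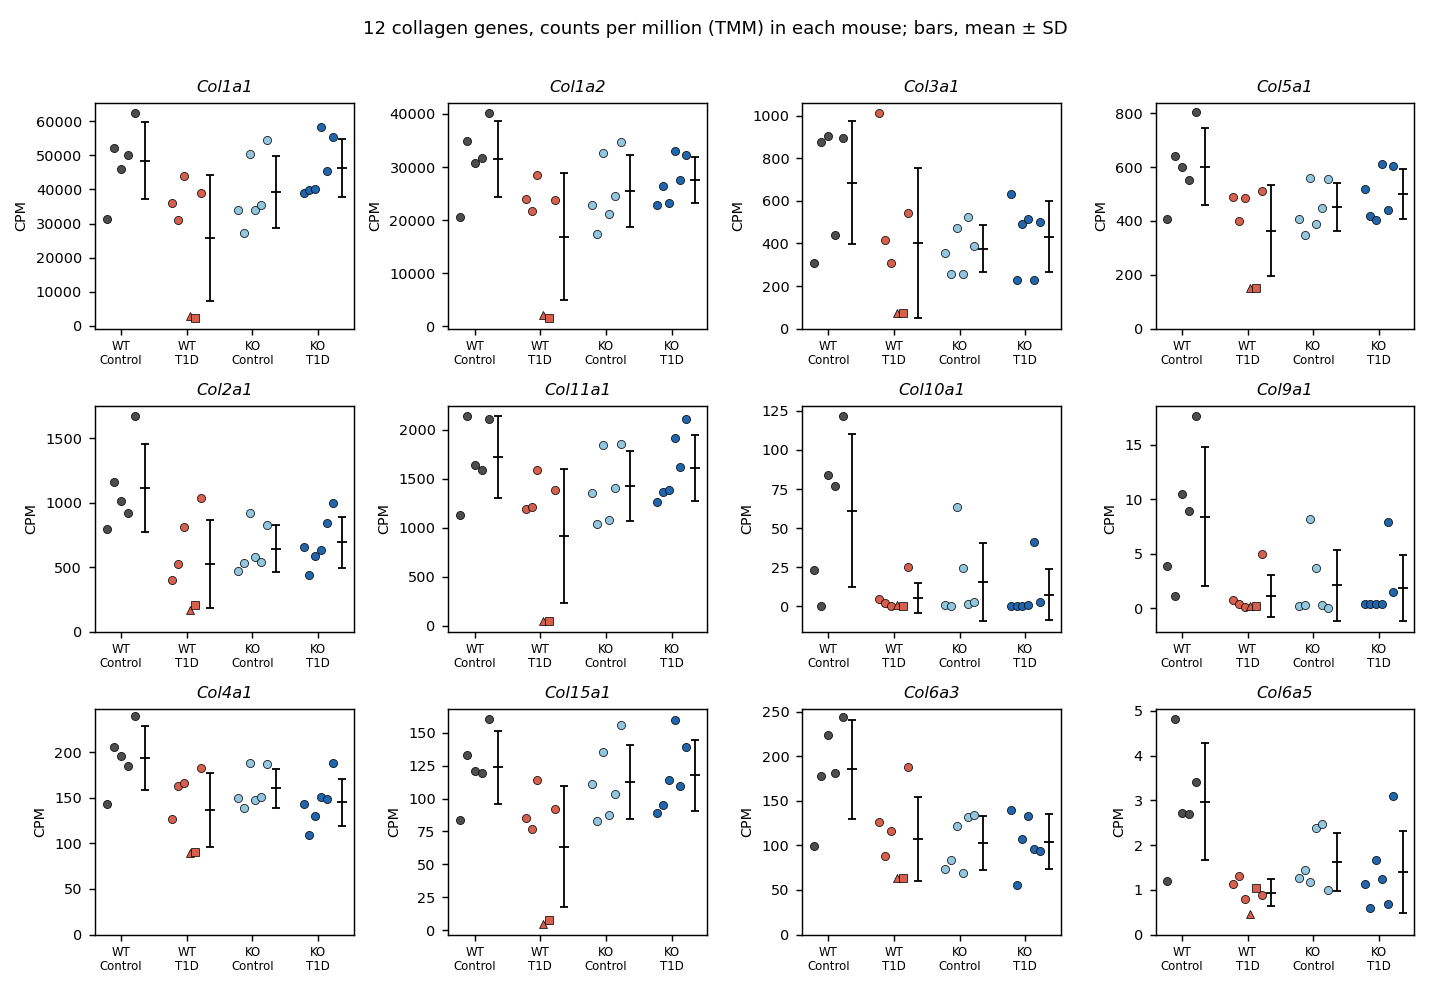
CPM of 12 collagen genes in each of the 23 mice by group, with the mean and SD as bars beside the points, A3905 as a triangle, and A3906 as a square. In Col1a1 these 2 mice lie at 3018 and 2215 CPM while every other mouse lies at 27360 CPM or above, whereas in Col10a1 low values occur in all 4 groups.

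The 8 cartilage chains had a median log2 fold change of -1.59 in WT T1D, and 8 of 8 were lower, but 0 passed. Col11a1, Col11a2, and Col2a1 were abundant in all mice but A3905 and A3906, whereas Col10a1 and the 3 type IX chains were close to 0 in some mice of each group. Col2a1 (ID 12824), the chain of the main cartilage fibril, was 795, 1162, 1015, 924, and 1676 CPM in WT Control and ran from 168 through 464 to 1033 CPM in WT T1D. In WT T1D, 4 of 6 mice had less Col2a1 than any WT Control animal, and the log2 fold change was -1.09 ± 0.35 (SE), with an adjusted p of 0.0767 by edgeR. Without A3905 and A3906 it was -0.69, with an adjusted p of 0.367 by edgeR. Col11a1 (ID 12814) was 51.1 CPM in A3905, 43.1 CPM in A3906, and 1034 to 2139 CPM in the other 21 mice. The log2 difference was -0.92 ± 0.56 (SE), and -0.36 without the 2 mice. Col11a2 was like it, with 59.7 and 41.1 CPM in the 2 mice and 1010 to 2065 CPM elsewhere. In these 21 mice Col11a1 thus varied 2.07-fold from lowest to highest, Col11a2 2.04-fold, and Col2a1 4.17-fold.

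Col10a1 (ID 12813), a marker of hypertrophic chondrocytes, was 23.4, 0.274, 83.9, 76.8, and 122 CPM in WT Control. It ran from 0.229 through 1.51 to 24.8 CPM in WT T1D, from 0.462 through 2.18 to 63.2 CPM in KO Control, and from 0.109 through 0.54 to 41 CPM in KO T1D. In each group at least 1 mouse was under 1 CPM and at least 1 was above 20 CPM. Its log2 fold change in WT was the largest of any collagen, -3.47 ± 1.37 (SE), and had an adjusted p of 0.138 by edgeR. Col9a1 (ID 12839), a chain that decorates type II fibrils, was 3.89, 1.1, 10.5, 8.91, and 17.6 CPM in WT Control and 0.115 to 5 CPM in WT T1D, and its log2 fold change was -2.91 ± 1.08 (SE), with an adjusted p of 0.118 by edgeR. Col9a2 and Col9a3 had log2 fold changes of -2.19 ± 0.87 and -2.09 ± 0.88 (SE). The 4 WT Control mice with the most Col10a1 also had the most Col9a1 of their group. Without A3905 and A3906 the change was -2.95 for Col10a1 and -2.43 for Col9a1, and low values also occurred in other WT T1D mice. The 8 of 10 listed chondrocyte markers that were tested, none of them a collagen, had a summed level of 33.2 to 158 CPM in WT Control mice and 24.7 to 93.4 CPM in WT T1D mice. The sum was 22.9 to 77.3 CPM in the KO Control group and 21.4 to 53 CPM in the KO T1D group. Their part in the result was not tested. In the 4 groups, the highest sum was in the mouse with the highest Col10a1. Col27a1, a fibrillar chain of cartilage, did not stand apart in A3905 and A3906, with 25.6 and 31.6 CPM. It had 33.6 to 51.1 CPM in WT Control and 21 to 41.7 CPM in WT T1D, with a log2 fold change of -0.53 ± 0.16 (SE), and an adjusted p of 0.0593 by edgeR. Leaving out these mice gave -0.54.

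The 5 basement membrane chains were lower in 5 of 5 cases, with a median log2 fold change of -0.47, and 0 passed. Col4a1 (ID 12826) was 143, 205, 196, 185, and 240 CPM in WT Control and ran from 89.8 through 145 to 183 CPM in WT T1D. The log2 fold change was -0.51 ± 0.17 (SE), with an adjusted p of 0.0925 by edgeR, and -0.28 without A3905 and A3906. Col4a2 (ID 12827) was 99.6, 133, 133, 135, and 146 CPM in WT Control and 65.1 to 122 CPM in WT T1D, with a change of -0.47 ± 0.16 (SE), or -0.27 without them. The difference in A3905 and A3906 was smaller here than for type I collagen, since Col4a1 was at 46.3% and 46.8% of the WT Control mean in these mice and Col1a1 at 6.23% and 4.57%. Col15a1 (ID 12819), a chain of the zone beneath basement membranes, was the exception, with 4.53 and 8.04 CPM in the 2 mice and 76.8 to 160 CPM elsewhere. On the log2 scale the change was -0.96 ± 0.48 (SE), and -0.43 without the 2 mice. Col18a1 (ID 12822), the source of endostatin, was 11.6 and 16.8 CPM in A3905 and A3906, within the range of the other mice, and its log2 fold change was -0.47 ± 0.20 (SE), or -0.43 without them. The summed level of the 8 endothelial markers was 289 to 392 CPM in WT Control and 258 to 350 CPM in WT T1D, and its part in these values was not tested.

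The 5 beaded filament chains had a median log2 fold change of -0.57 in WT T1D, with 5 of 5 lower and Col6a5 past the threshold. Col6a1 (ID 12833) was 169, 228, 264, 293, and 350 CPM in WT Control and ran from 84 through 207 to 277 CPM in WT T1D, with a log2 fold change of -0.50 ± 0.27 (SE). The change was -0.16 when A3905 and A3906 were left out. Col6a3 (ID 12835) was 99.1, 178, 223, 181, and 244 CPM in WT Control and 62.9 to 187 CPM in WT T1D, with a log2 fold change of -0.79 ± 0.28 (SE) and an adjusted p of 0.104 by edgeR, or -0.52 without the 2 mice. The groups overlapped for both genes.

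Among the fibril-associated chains, Col12a1 (ID 12816), found in dense connective tissue and periosteum, was 147, 331, 335, 195, and 379 CPM in WT Control and 78 to 268 CPM in WT T1D, with a change of -0.70 ± 0.33 (SE), or -0.37 without A3905 and A3906. Col22a1, a chain of tissue junctions, was 23.5 and 18.5 CPM in A3905 and A3906 and 197 to 376 CPM elsewhere, and its change was -0.92 ± 0.43 (SE), or -0.40 without these mice. Col14a1 went the other way, with 12 to 17.4 CPM in WT Control and 16.6 to 26.8 CPM in WT T1D. Its log2 fold change was 0.47 ± 0.16 (SE), with an adjusted p of 0.0856 by edgeR, and it was 0.47 without A3905 and A3906 too. Of the remaining chains, Col13a1, a transmembrane collagen, had the largest change of its class. It was 57.7, 76.3, 78.8, 71.1, and 98.5 CPM in WT Control and ran from 11.3 through 48 to 60.6 CPM in WT T1D, and 5 of these 6 mice had less than any WT Control animal. The log2 fold change was -0.94 ± 0.29 (SE), with an adjusted p of 0.0669 by edgeR, and -0.53 with an adjusted p of 0.275 without A3905 and A3906.

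**Figure D3:**
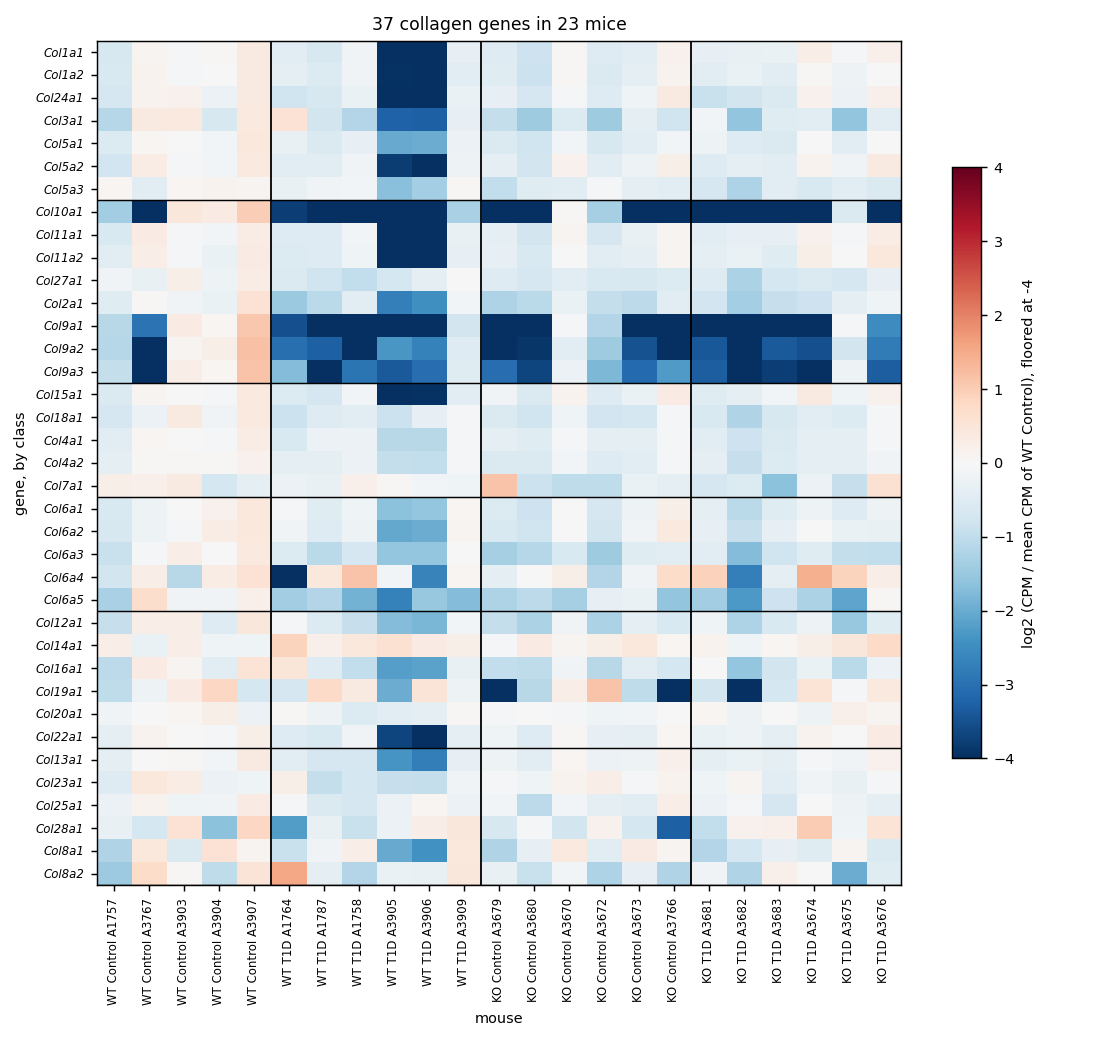
CPM of the 37 tested collagen genes in the 23 mice as log2 of the ratio to the WT Control mean, floored at -4, with classes separated by horizontal lines and groups by vertical lines. A3905 and A3906 are dark blue for Col1a1, Col11a1, Col15a1, and Col24a1 but pale for Col18a1 and Col27a1. Col10a1 and Col9a1 are dark in most WT T1D mice and in most mice labelled KO.

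The levels in A3905 and A3906 thus differed by chain as well as by class. As a percentage of the WT Control mean, the bone and stromal fibrillar chains of A3905 ran from 2.94% to 31.1%, the basement membrane chains from 3.66% to 104%, and the cartilage chains from 1.2% to 62.1%. In A3906 the same classes ran from 4.57% to 38.9%, from 6.5% to 91.7%, and from 0.567% to 76.6%. Type I collagen made up 80% of all collagen counts in A3905 and 74.8% in A3906, and 88.4% to 91.5% in the other mice.

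The comparison within mice labelled KO asks whether the same differences appeared with T1D there. Collagen levels in KO T1D were close to those of KO Control, and 0 of 37 genes passed by edgeR, as did 0% of all genes. At an unadjusted p under 0.05, 0 collagen genes were lower and 0 higher, against 1.66% and 1.49% of all genes. DESeq2 and limma also called 0 collagen genes, and 0% of all genes. The median log2 fold change was 0.03, with 17 genes negative and 20 positive. Col1a1 ran from 27360 through 34703 to 54623 CPM in KO Control and from 38832 through 42855 to 58304 CPM in KO T1D, a log2 fold change of 0.24 ± 0.47 (SE). Col1a2 ran from 17355 through 23689 to 34693 CPM and from 22834 through 26979 to 32941 CPM, a change of 0.11 ± 0.46 (SE). The 2 groups overlapped for both. The 95% interval of the log2 fold change was -0.73 to 1.20 for Col1a1 and -0.84 to 1.05 for Col1a2. These intervals and p-values rest on a spread shared by all 4 groups, A3905 and A3906 included. For Col1a1 the SD of log2 (CPM + 0.5) was 0.381 in KO Control, 0.256 in KO T1D, and 2.00 in WT T1D. For Col6a5 it was 0.420, 0.623, and 0.322. With only the groups compared in the fit, 0 collagen genes passed as well, as did 0% of all genes.

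Other named chains in mice labelled KO also showed small differences relative to these shared errors, which do not measure the spread of the KO groups alone. The log2 fold change was 0.10 ± 0.33 (SE) for Col2a1, 0.17 ± 0.54 for Col11a1, -0.20 ± 1.02 for Col9a1, and -1.04 ± 1.26 for Col10a1. It was -0.15 ± 0.16 for Col4a1, -0.07 ± 0.15 for Col4a2, 0.06 ± 0.45 for Col15a1, and -0.08 ± 0.19 for Col18a1. It was -0.17 ± 0.26 for Col6a1, 0.03 ± 0.27 for Col6a3, -0.20 ± 0.37 for Col6a5, 0.08 ± 0.31 for Col12a1, and -0.04 ± 0.27 for Col13a1. For each of these the SE was larger than the change. No mouse labelled KO had type I levels like those of A3905 and A3906.

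**Figure D4:**
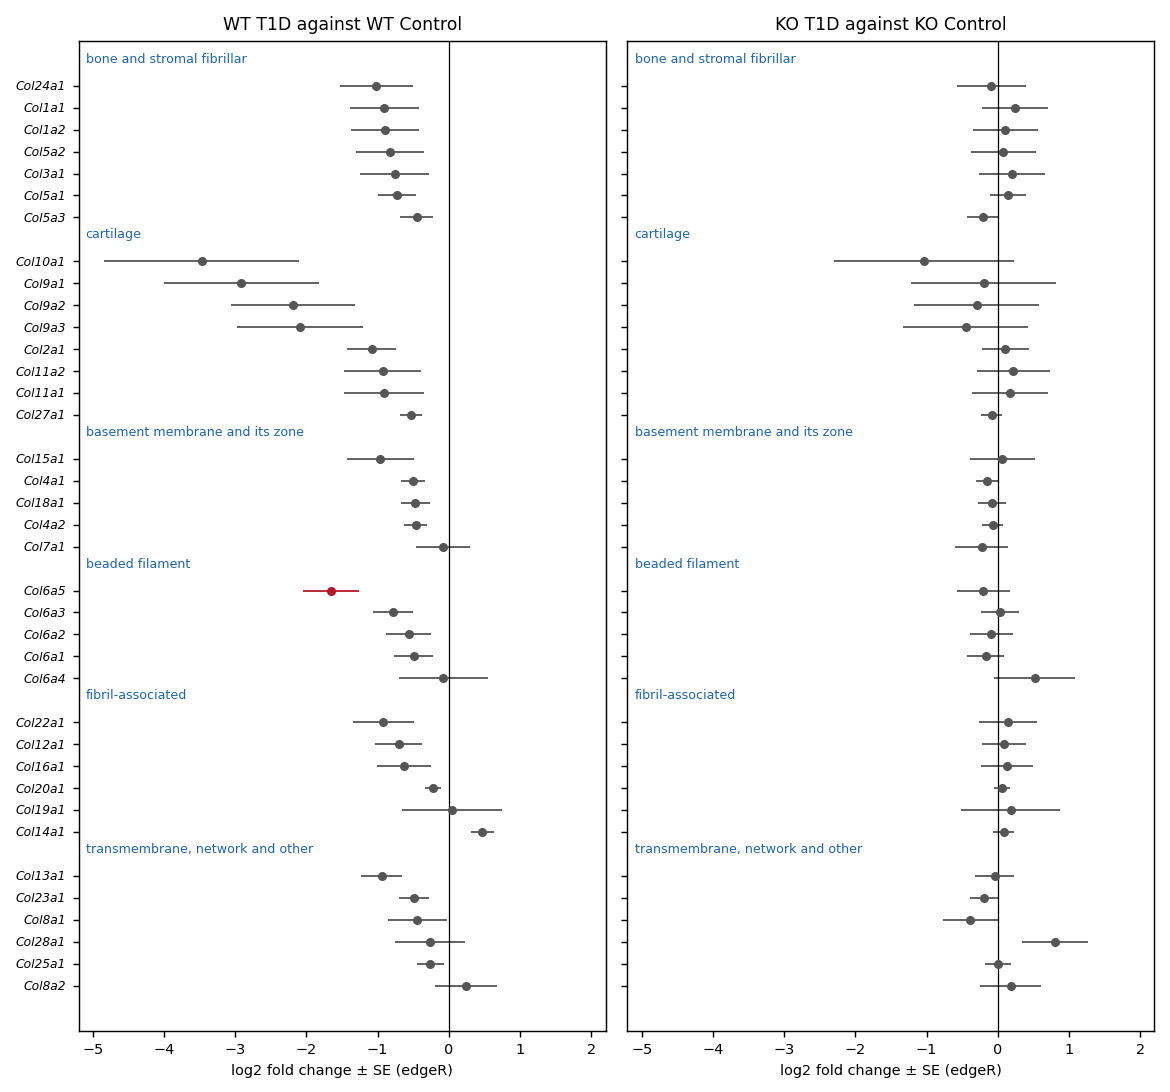
Log2 fold change from edgeR for T1D in WT (left) and in mice labelled KO (right), for the 37 tested collagen genes by class. Bars show the SE derived from the F value of the test, and the gene past the adjusted p threshold is in red. On the left 34 of 37 points lie below 0 and Col6a5 at -1.66 is red, while on the right 17 lie below 0.

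The interaction of genotype and T1D, which is the difference between the 2 changes above, had a positive value in 34 of 37 collagen genes, with a median of 0.81 against 0.01 over all genes. By edgeR 0 of 37 passed, as did 0% of all genes. DESeq2 and limma also called 0 collagen genes, against 0% and 0.0139% of all genes. The lowest adjusted p was 0.479. At an unadjusted p under 0.05, 6 were higher and 0 lower, against 4.81% and 5.4% of all genes. These 6 were Col13a1, Col27a1, Col2a1, Col5a1, Col6a3, and Col6a5. Without T1D, Col27a1, Col2a1, Col6a3, and Col6a5 were already lower in labelled KO than in WT mice at an unadjusted p under 0.05 by edgeR. With T1D, only Col13a1 of the 6 differed between the genotypes at that level, and it was higher in labelled KO mice. For Col27a1, Col2a1, Col6a3, and Col6a5, a positive term therefore does not show that labelled KO mice with T1D kept the WT Control level. The interaction term was 1.14 ± 0.68 (SE) for Col1a1, 1.01 ± 0.66 for Col1a2, 1.19 ± 0.48 for Col2a1, 0.87 ± 0.37 for Col5a1, and 1.45 ± 0.54 for Col6a5. Leaving out A3905 and A3906 gave a median term of 0.45, and the term was 0.61 for Col1a1, 0.48 for Col1a2, 0.50 for Col5a1, and 0.79 for Col2a1. The unadjusted p of edgeR then fell for some genes, as from 0.104 to 0.0304 for Col1a1. For others it rose, as from 0.0937 to 0.267 for Col12a1, and 0% of all genes passed after adjustment. A difference in response between the genotypes was therefore not shown for any collagen gene, and in a test of this kind a p above the threshold does not show that the responses were alike.

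Comparison of the 2 control groups asks whether the genotype label alone went with a difference. In labelled KO Control mice, 35 of 37 collagen genes had a negative log2 fold change against WT Control, where 50.1% of all genes did, and the median was -0.31. By edgeR 0 passed, against 0.0278% of all genes, and at an unadjusted p under 0.05 there were 9 lower and 0 higher, against 2.51% and 2.3% of all genes. DESeq2 and limma also called 0, against 0.0278% and 0.0348% of all genes. Col27a1 was the 1 chain for which every mouse of the KO Control group lay below every WT Control mouse, as 0.292% of all genes did. Its range was 25.7 to 31 CPM there and 33.6 to 51.1 CPM in WT Control, with a log2 fold change of -0.56 ± 0.16 (SE) and an adjusted p of 0.999 by edgeR. Col2a1 had 1115 ± 341 CPM in WT Control (SD, n = 5) and 645 ± 184 CPM in the KO Control group (n = 6), a log2 difference of -0.79 ± 0.35 (SE). Both WT T1D and KO Control were compared with the same WT Control mice, so these differences are not independent.

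With T1D in both, labelled KO mice had 26 of 37 collagen genes higher and 11 lower than WT T1D, with a median of 0.23. The direction rested on A3905 and A3906, since without them the median was -0.08 and 20 of the 37 were lower. By edgeR 0 passed, against 0.0905% of all genes, and the lowest adjusted p was 0.187, for Col13a1. At an unadjusted p under 0.05, 3 were higher and 0 lower, against 8.44% and 8.65% of all genes. Col13a1 ran from 59.7 to 86.9 CPM in KO T1D, a log2 difference of 0.79 ± 0.28 (SE), and Col22a1 from 228 to 376 CPM, a difference of 0.87 ± 0.41 (SE). Without A3905 and A3906 these differences were 0.37 and 0.35. These 2 genes passed in mice with IDs from A36 to A39, where 10.7% of all genes did, and with limma on TPM, where 8.12% did. DESeq2 called 0 collagen genes, against 1.66% of all genes.

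Other tools changed the count for T1D in WT. DESeq2 called 6 collagen genes, against 6.98% of all genes, of which Col2a1, Col4a1, Col6a5, Col13a1, and Col27a1 were lower and Col14a1 was higher. limma on log2 (TPM + 1) called 28 collagen genes, all lower, against 35.9% of all genes. On that scale the median log2 fold change of all genes was itself -0.24, and 36 of the 37 collagen genes were negative.

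Chains of the same molecule or of neighbouring roles (Col3a1 to Col1a1 and Col2a1 to Col10a1) were compared as ratios, which do not depend on the scaling between libraries. Col1a1 to Col1a2, the chains of type I collagen, had a TPM ratio of 1.35 ± 0.0326 in WT Control mice and 1.33 ± 0.0647 in WT T1D mice (SD). The ratio was 1.35 ± 0.053 in the KO Control group and 1.48 ± 0.0819 in the KO T1D group. In A3905 and A3906 it was 1.29 and 1.28, although both chains were low. These values lay within the 1.26 to 1.44 of WT T1D and the 1.27 to 1.40 of KO Control. They lay below the 1.32 to 1.39 of WT Control and the 1.33 to 1.56 of KO T1D. On counts, the log2 ratio was 0.128 higher in KO T1D than in KO Control, with p = 0.0152 by a two-sided exact permutation test, and 0.152 after adjustment over the 10 pairs. In WT it differed by -0.0241 with p = 0.491 by the same exact test. For Col4a1 to Col4a2, the TPM ratio was 1.25 to 1.59 in WT T1D and 1.34 to 1.60 in WT Control, and for Col11a1 to Col11a2 it was 0.752 to 1.06 and 0.915 to 1.14.

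The ratio did not hold for every pair. Col5a1 to Col5a2 was 1.21 in A3905 and 1.60 in A3906, against 0.272 to 0.436 in the other 21 mice, since Col5a2 was lower still. Col6a1 to Col6a2 was 0.916 and 0.931 in these 2 mice, against 0.578 to 0.734 elsewhere. In WT, 0 of the 10 ratios had an adjusted p under 0.05 by the exact permutation test, and the lowest was 0.0866, for Col9a1 to Col9a2. In mice labelled KO 0 passed as well, and for the interaction the lowest adjusted p was 0.0558 by permutation, for Col9a1 to Col9a3. The interaction test permuted genotype labels within Control and within T1D. It assumes no genotype difference in either, so it is not an exact test of the interaction alone. The type IX genes had few counts in most mice, and the SD of the log2 count ratio of Col9a1 to Col9a3 was 1.84 in the KO Control group.

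**Figure D5:**
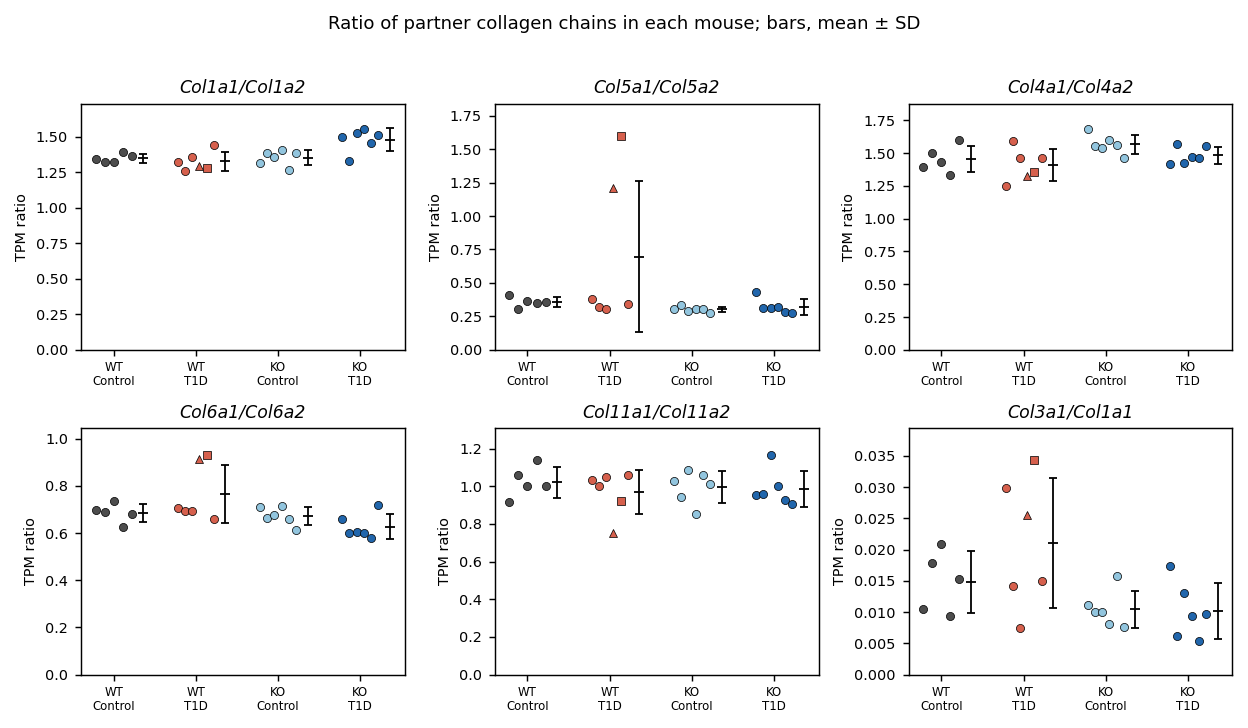
TPM ratio of 6 pairs of collagen chains in each mouse by group, with mean and SD as bars, A3905 as a triangle, and A3906 as a square. The ratio of Col1a1 to Col1a2 is 1.29 and 1.28 in these 2 mice and 1.26 to 1.56 in the others. That of Col5a1 to Col5a2 is 1.21 and 1.60 in these 2 mice and at most 0.436 elsewhere.

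Genes of the wider pathway were taken from lists of processing enzymes, receptors, and regulators. Of the 30 tested genes for collagen processing, such as hydroxylases, chaperones, and lysyl oxidases, 28 were negative in WT T1D, with a median log2 fold change of -0.56, and 0 passed by edgeR. The largest changes were -1.09 ± 0.42 (SE) for Colgalt2, which adds sugars to collagen, -1.06 ± 0.38 for Pcolce2, which aids removal of the propeptide, and -1.01 ± 0.32 for Loxl4, a crosslinking enzyme. When A3905 and A3906 were left out, 26 were negative, the median was -0.19, and the values were -0.61 for Colgalt2, -0.88 for Pcolce2, and -0.59 for Loxl4. In mice labelled KO, 10 of the 30 were negative and the median was 0.03. Of the 10 collagen receptors, 9 were negative in WT T1D, with a median of -0.22 and 0 past the threshold, led by the integrin Itga10 with -0.83 ± 0.31 (SE), the endocytic receptor Mrc2 with -0.67 ± 0.21, and the kinase Ddr2 with -0.61 ± 0.29. These were -0.40, -0.39, and -0.22 without the 2 mice, and the median of the list was -0.10.

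Of 11 tested transcription regulators of collagen genes, 7 were negative in WT T1D, with a median of -0.52. Of these, 1 passed as lower and 1 as higher, against 0.828% and 1.5% of all genes. They were Runx2, a factor of osteoblasts, with -0.66 ± 0.16 (SE) and an adjusted p of 0.0451, and Sox6, a partner of Sox9, with 0.62 ± 0.14 and an adjusted p of 0.0367 by edgeR, named after their values were seen. Both calls were lost without A3905 and A3906, where the changes were -0.42 and 0.45 and 0% of all genes passed. The Sox6 call was also lost without any 1 of WT Control A3767, A3903, A3904, or A3907 or WT T1D A1787, A3905, or A3906, and the Runx2 call without any 1 of these or of KO Control A3670, A3673, A3679, or A3680 or KO T1D A3675, A3676, or A3681. Sox9, the factor of chondrocytes, had the largest change, -0.86 ± 0.43 (SE), followed by Sp7 with -0.82 ± 0.32 and Creb3l1 with -0.74 ± 0.35, and none of these passed. Without the 2 mice these 3 were -0.46, -0.40, and -0.29, and the median of the list was -0.17. In mice labelled KO, 0 of the 11 passed. Sox9 and Sp7 are also on the chondrocyte and osteoblast marker lists.

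The marker lists of other cells did not all move with the collagen genes. In WT T1D against WT Control, the median log2 fold change was -0.69 for the 10 osteoblast and osteocyte markers, of which 1 (Ibsp, bone sialoprotein) passed as lower, against 0.828% of all genes, and -1.81 for the 8 chondrocyte markers, of which 0 passed. It was 0.64 for the 9 erythroid markers, of which 5 passed as higher, against 1.5% of all genes, and 0.16 for the 9 neutrophil and promyelocyte markers, of which 0 passed. It was -0.21 for endothelial markers, -0.13 for tendon and fibroblast markers, 0.15 for skeletal muscle markers, and 0.15 for marrow stromal markers, with 0 past the threshold in each of these 4 lists. It was 0.09 for the 4 Schwann cell markers, of which 1 (Mbp) passed as higher, against 1.5% of all genes. Without A3905 and A3906 each of these 7 calls was lost, and 0 genes of any list passed. The medians were then -0.35 for osteoblast and osteocyte, -1.35 for chondrocyte, 0.41 for erythroid, -0.03 for neutrophil and promyelocyte, -0.10 for endothelial, 0.23 for tendon and fibroblast, 0.23 for skeletal muscle, 0.05 for marrow stromal, and 0.10 for Schwann cell markers. The neutrophil and tendon medians thus turned sign. Leaving out 1 mouse lost the Ibsp call for each of WT Control A3767, A3903, A3904, and A3907 and WT T1D A3905 and A3906, and these 6 omissions also lost the other 6 calls, as did that of A1787. The call was lost in 7 of 23 omissions for Slc4a1, 8 for Hbb-bs, 16 for Epb42 and for Mbp, and 19 for Hba-a1. The summed skeletal muscle markers varied widely, from 1250 to 8668 CPM in WT Control mice. The part of these cells in the collagen values was not tested.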

How the data were processed

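RNA-Seq was performed on marrow-depleted bone of 23 mice. Poly(A) RNA was sequenced as paired ends, and per the labels and the study's methods SOAPnuke was used to clean the reads and the aligners were HISAT and Bowtie2, with GRCm38.p6 as the genome. The deposited expected counts were estimated by the authors with RSEM and rounded before deposit, and the deposited TPM values were computed by the authors' sequencing provider. Whether counting used strand is not given in the sources used here.

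A gene was tested if 5 or more mice had 10 or more counts. The quasi-likelihood test of edgeR 4.0.16 (R 4.3.3) was fitted with TMM scaling and 1 mean per group over all 4 groups, and p-values were adjusted by Benjamini-Hochberg over 14364 genes, with a threshold of 0.05. CPM were scaled by TMM. The SE was not an output of the test. It was computed as the absolute log2 fold change over the square root of the F value, and the 95% intervals were built from it. All groups shared 1 estimate of the spread of each gene. Ratios of 10 chain pairs (0.5 added to counts) were compared by two-sided exact permutation tests. For the interaction, genotype labels were permuted within Control and within T1D. DESeq2 1.42.0, limma 3.58.1 on log2 (TPM + 1), other scalings, no filter, subsets of mice, and leaving out each mouse were alternatives. Collagen genes passing the filter could be named, with per-mouse values for preset chains, called genes, and the largest difference per class. Members and lists were chosen with earlier results of these data known. Mice are the replicates. Total counts of 16938101 to 20135592 limit the precision of scarce genes most.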

Additional observations from a re-analysis of the deposited data

Results flagged for a closer look

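In 120 groups of 5 or 6 mice, 1 per gene or ratio and group, 11 held a mouse far from the others by Dixon's criterion, where chance gives about 1 in 20. The highest mouse stood apart for Col9a1 in WT T1D (5.00 CPM, A3909) and in KO T1D (7.95 CPM, A3675), and for Col10a1 in the same mice (24.8 and 41 CPM). These mice also had the highest summed chondrocyte markers of their groups, 93.4 and 53 CPM, and the part of those cells was not tested. The lowest WT Control mouse stood apart for Col4a2 (99.6 CPM, A1757).

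Among log2 count ratios, the highest mouse stood apart for Col5a1 to Col5a2 in KO T1D (-0.87), for Col9a1 to Col9a2 (1.90), Col9a1 to Col9a3 (3.04), and Col2a1 to Col10a1 (11.9) in WT Control, and for Col11a1 to Col11a2 in KO T1D (0.34). The lowest stood apart for Col11a1 to Col11a2 in WT T1D (-0.22, A3905).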

How the results depend on the processing

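The number of collagen genes past the threshold for T1D in WT was 1. It was 6 with DESeq2, 28 with limma on TPM, and 11 among A36 to A39 mice, against 6.98%, 35.9%, and 15.4% of all genes. It was 0 with no filter on low counts, without both A3905 and A3906, or with only the groups compared, against 0.489%, 0%, and 0%. Leaving out 1 mouse gave 0 to 11. It was 11 without WT T1D A3909, 3 without A1764, and 2 without WT Control A1757, against 8.8%, 6.53%, and 4.8% of all genes. It was 0 without each of the 13 mice named for Col6a5 in the report. For mice labelled KO against WT in T1D it was 2 with limma and 2 among A36 to A39 mice, against 8.12% and 10.7% of all genes. For ratios of chains, leaving out 1 mouse gave 0 to 2 calls in WT (2 without A1787), 0 to 1 in mice labelled KO (1 without A3682), and 0 to 1 for the interaction (1 without A1787, A3909, A3670, A3672, or A3681).

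Some small log2 fold changes in mice labelled KO turned sign. Col6a3 was -0.018 by total counts and -0.0181 by limma. With 1 mouse left out, the ranges were -0.0383 to 0.2335 for Col2a1, -1.771 to 1.0226 for Col9a1, -4.2232 to 0.3394 for Col10a1, -0.1496 to 0.0084 for Col4a2, -0.0735 to 0.1575 for Col6a3, -0.0243 to 0.2255 for Col12a1, -0.0472 to 0.1788 for Col15a1, -0.2069 to 0.0221 for Col18a1, -0.2212 to 0.0417 for Col24a1, and -0.1286 to 0.0277 for Col13a1. The interaction term was -0.0156 for Col6a1 without both A3905 and A3906 and -0.7452 to 4.1838 for Col10a1 with 1 mouse left out. The cause was not tested. For T1D in WT, 5 of the 37 collagen genes turned sign under at least 1 alternative, namely Col6a4, Col7a1, Col8a2, Col19a1, and Col28a1. Leaving out mice for the pathway and marker lists was added after seeing the data. On limma's scale the median of all genes was -0.24 in WT.

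No paired analysis was possible because no mouse number is shared between groups. The WT group holds both ID series and the labelled KO groups hold A36 to A39 mice only, so ID series and genotype are partly confounded, and the series are unevenly spread over WT Control and WT T1D.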
